A study of Homo sapiens with 12 samples.

Results

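A set of 10 genes that mark epithelial or mesenchymal cells was followed in 4 synovial sarcoma (SS) cell lines treated with a PI3K inhibitor. The epithelial genes are *MUC1*, *KRT7*, *KRT8*, *KRT18*, *KRT19*, *EPCAM* and *CDH1*, and the mesenchymal genes are *CDH2*, *VIM* and *ZEB1*. Every probe set of the array annotated with exactly 1 gene symbol among these 10 was taken, which gave 22 probe sets. The whole table names 19775 gene symbols. Aska-SS and Yamato-SS carry the SS18-SSX1 fusion gene and SYO-1 and Fuji carry SS18-SSX2. Cells of each line were kept for 24 h with ZSTK474, a pan-PI3K inhibitor, at 0 µM, 0.3 µM or 3 µM. RNA was hybridised to U133 Plus 2.0 GeneChips of Affymetrix, 1 for each line at each dose and 12 in all. All lines were kept in RPMI-1640 medium with fetal bovine serum, and each is an established line grown without other cell types of a tumor. The 4 lines served as the replicates of a dose, and the 3 doses of a line served as its 3 arrays. Nothing says whether the cultures of a line were set up separately, so the p-values measure only the spread between these arrays.

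Epithelial cells hold together through E-cadherin, desmosomes and tight junctions and fill their cytoplasm with keratins. In the epithelial to mesenchymal transition, repressors such as ZEB1, ZEB2, SNAI1, SNAI2 and TWIST1 turn such genes down while N-cadherin and vimentin are made. SS is known for its mixed differentiation, since a biphasic tumor holds epithelial glands beside spindle cells and even monophasic tumors often have single cells positive for keratin or for EMA, the product of *MUC1*.

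ZEB1 and ZEB2 bind the E-box letters CACCTG, or CAGGTG on the other strand. RefSeq promoters of the assembly GRCh38.p14, from 250 bases before to 50 bases after the start of a gene, were matched for 5 of the 10 genes (*MUC1*, *KRT8*, *CDH2*, *VIM* and *ZEB1*). Among the 5, those of *MUC1* and *ZEB1* hold these letters, and they are shown here with the E-boxes in capitals because *ZEB1* itself and *MUC1* carry the main results below. The promoter of *CDH2*, without the letters, is shown beside them because its level ran opposite to that of *ZEB1* in 1 line.
MUC1, chr1:155192866-155193165, minus strand: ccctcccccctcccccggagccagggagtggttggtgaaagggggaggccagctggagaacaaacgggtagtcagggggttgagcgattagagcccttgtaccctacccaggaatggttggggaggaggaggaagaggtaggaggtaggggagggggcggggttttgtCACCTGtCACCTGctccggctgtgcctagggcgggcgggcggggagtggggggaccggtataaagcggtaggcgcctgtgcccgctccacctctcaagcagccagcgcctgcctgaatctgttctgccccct
ZEB1, chr10:31318167-31318466, plus strand: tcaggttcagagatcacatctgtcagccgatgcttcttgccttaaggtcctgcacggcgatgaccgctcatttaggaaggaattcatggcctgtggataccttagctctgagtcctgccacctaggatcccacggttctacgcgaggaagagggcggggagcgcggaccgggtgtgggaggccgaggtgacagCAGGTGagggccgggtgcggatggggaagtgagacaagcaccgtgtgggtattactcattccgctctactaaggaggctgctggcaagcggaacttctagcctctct
CDH2, chr18:28177081-28177380, minus strand: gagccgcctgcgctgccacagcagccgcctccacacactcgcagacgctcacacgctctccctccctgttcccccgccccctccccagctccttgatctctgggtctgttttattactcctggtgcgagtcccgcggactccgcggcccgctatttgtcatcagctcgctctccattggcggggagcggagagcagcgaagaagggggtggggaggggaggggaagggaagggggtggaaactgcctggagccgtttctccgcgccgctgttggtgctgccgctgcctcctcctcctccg
The pair of E-boxes in *MUC1* begin at positions -82 and -75 from the start and are a base apart, and the one in *ZEB1* begins at -57. Both strands were searched and no other motif was. Of 35116 promoters of this length, 20.6% hold the letters at least once and 3.49% hold them 2 or more times. A match is a description of the letters and not a measured site.

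Signals are linear MAS5 intensities after quantile normalization, in which a value at the floor of 12.1 is only an upper bound. The deposited arrays had median signals of 60.1 to 70.6 without drug, and of 63.6 to 77.7 at 0.3 µM and 71.0 to 85.3 at 3 µM. All 6 SS marker genes measured passed the filter on dim probe sets. Geometric mean signals in the 4 lines were 7946 to 21819 for *TLE1*, a corepressor, 2341 to 7767 for *PRAME*, a tumor antigen, 470 to 13890 for the WNT receptor gene *FZD10* (highest in SYO-1 and lowest in Yamato-SS) and 438 to 5270 for *BCL2*, an inhibitor of cell death (highest in Fuji and lowest in Aska-SS). At 3 µM *PRAME* and *TLE1* rose by 0.47 and 0.29 in log2 signal against 0 µM (adjusted p = 0.00278 and 0.0318). The *SSX1* probe set, which may also read related *SSX* genes, had mean signals of 3739 in Aska-SS and 3444 in Yamato-SS, and of 1624 in SYO-1 and 975 in Fuji. None of the leukocyte markers *PTPRC*, *CD3E*, *CD14* and *LYZ* passed the filter, and *CD14* lay at the floor in every line mean. Of 5 endothelial markers, *PECAM1* alone passed, with line means of 120 to 141 and no difference between lines past the test. The others were dim on average but not alike in the lines. Means were 258 in SYO-1 for *KDR* (17.6 to 37.1 elsewhere) and 86.1 in Aska-SS for *CDH5* (15.1 to 15.7 elsewhere). For *TEK* the mean was 62.5 in Fuji (12.1 to 17.2 elsewhere), and *VWF* had 13.2 to 29.9. All of these differed between lines in an F test without the filter (adjusted p = 0.00273, 0.000818, 0.0127 and 0.0127).

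Of the 22 probe sets, 12, from 6 genes, were brighter on average than the median of all probe sets and entered the tests. They were the 3 of *MUC1*, 1 of 4 of *KRT7*, the 1 of *KRT18*, both of *CDH2*, both of *VIM* and 3 of 4 of *ZEB1*. No probe set of *KRT8*, *KRT19*, *EPCAM* or *CDH1* did, and their levels are described from the same table with test values from a fit without the filter. The heat map of all 22 probe sets shows the 2 features that stand out, the uniformly bright *VIM* and the dark block of 3 *ZEB1* probe sets in Yamato-SS.

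**Figure D1:**
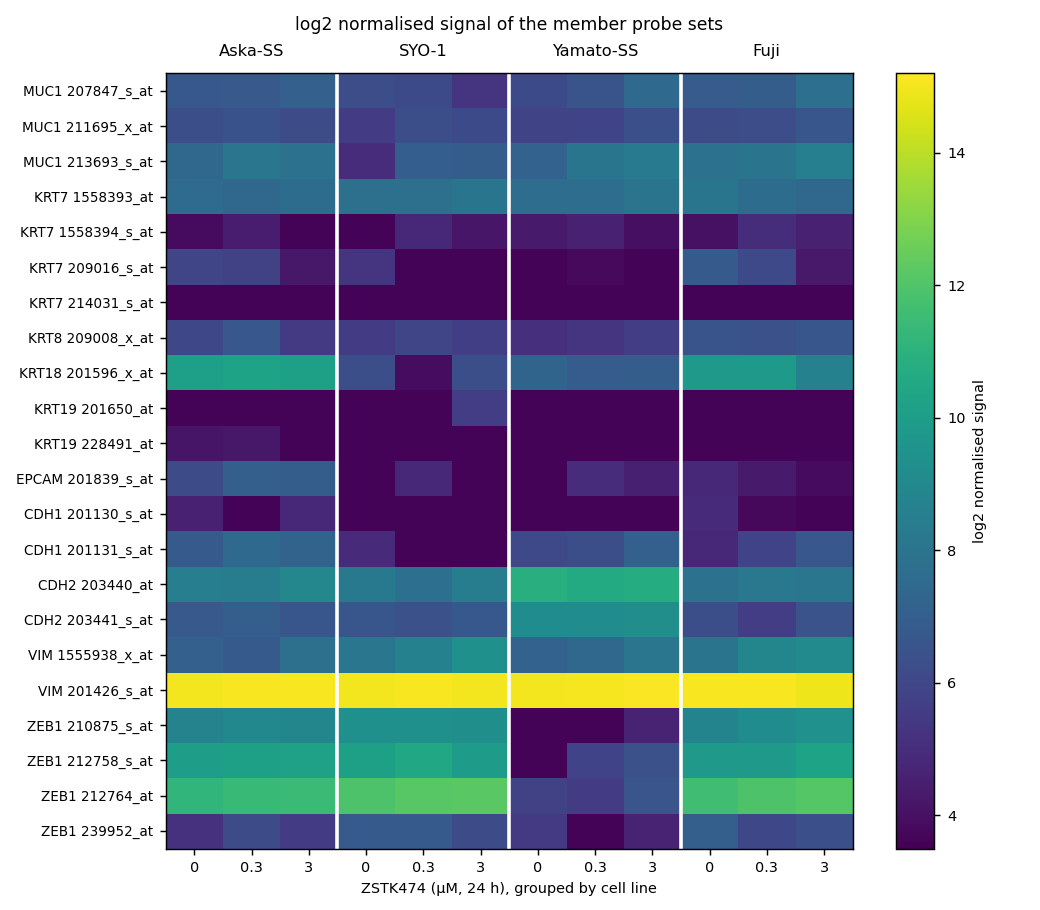
Heat map of the log2 normalised signal (colour) of the 22 probe sets (rows) in the 12 arrays (columns, grouped by cell line and ordered by ZSTK474 dose in µM within a line). *VIM* 201426_s_at is bright in every array, 3 of the 4 *ZEB1* probe sets are dark in Yamato-SS alone, *CDH2* is brightest in Yamato-SS, and *KRT18* is brightest in Aska-SS and Fuji.

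The 4 lines differed in *ZEB1*, *CDH2*, *KRT18* and *MUC1*, and in the dimmer probe set of *VIM*. Of the 12 probe sets tested, 9 differed between the lines (limma F test, adjusted p under 0.05), beside 76.3% of all 27306 probe sets tested, so the share is near the background. What distinguishes a few of them is the size of the range. The line means of *ZEB1* 212764_at spanned 6.11 on the log2 scale, more than 98.6% of the probe sets tested, against a median span of 0.94. By pairs of lines, the number called of the 12 was 5 for Aska-SS and SYO-1 (49.2% of all), 6 for Aska-SS and Yamato-SS (55.7%), 4 for Aska-SS and Fuji (40.8%), 8 for SYO-1 and Yamato-SS (46.4%), 3 for SYO-1 and Fuji (40.8%) and 7 for Yamato-SS and Fuji (52.9%).

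*ZEB1*, the zinc finger repressor of *CDH1*, was close to absent in Yamato-SS and bright in the other lines. At 0, 0.3 and 3 µM the signal of 212764_at was 3925, 4614 and 4656 in SYO-1, 3110, 3918 and 4500 in Fuji and 2342, 2702 and 2849 in Aska-SS. It was 56.3, 47.2 and 96.7 in Yamato-SS. The arrays of Yamato-SS did not overlap those of any other line at any dose. The mean was 69.0-fold higher in SYO-1 than in Yamato-SS (limma adjusted p = 6.38e-11), and the line next above Yamato-SS, Aska-SS, was still 41.3-fold higher (log2 difference 5.37, 95% interval 5.00 to 5.73, adjusted p = 1.54e-10). In the order SYO-1, Fuji, Aska-SS and Yamato-SS, SYO-1 and Fuji did not differ beyond their spread (difference 0.21, interval -0.16 to 0.57, adjusted p = 0.358), while Fuji was above Aska-SS by 0.53 (adjusted p = 0.0226).

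A further pair of *ZEB1* probe sets gave the same picture of Yamato-SS. The signal of 210875_s_at lay between 421 and 693 in the arrays of the other lines, and at the floor at 0 and 0.3 µM and at 24.2 at 3 µM in Yamato-SS. That of 212758_s_at was between 895 and 1450 in the other lines, and at the floor, 58.7 and 84.6 in Yamato-SS. Since arrays of Yamato-SS lay at the floor, mean signals in SYO-1 were at least 42.9-fold and 29.9-fold above those in Yamato-SS for these probe sets (adjusted p = 1.87e-09 and 1.53e-06), and the other 3 lines did not differ among themselves past the test in either. The fourth, 239952_at, was dim (median 68.7 over the 12 arrays) and also had its lowest mean in Yamato-SS (adjusted p = 0.0438 for the 4 lines, in the fit without the filter).

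*CDH2*, which encodes N-cadherin, was highest in Yamato-SS. In the order of doses 203440_at had signals of 1834, 1615 and 1742 in Yamato-SS, against 360, 346 and 484 in Aska-SS, 305, 221 and 350 in SYO-1 and 239, 290 and 271 in Fuji. Yamato-SS stood 4.40-fold above Aska-SS, the next line (log2 difference 2.14, interval 1.77 to 2.50, adjusted p = 3.65e-07). Aska-SS was above SYO-1 by 0.45 (adjusted p = 0.0407), and SYO-1 and Fuji did not differ beyond their spread (0.11, interval -0.25 to 0.48, adjusted p = 0.634). The second probe set, 203441_s_at, had 578 to 628 in Yamato-SS and 50.01 to 131 in the other lines, with Yamato-SS 5.35-fold above Aska-SS (adjusted p = 3.19e-06). There the neighbours Aska-SS and SYO-1 (0.23, adjusted p = 0.456) and SYO-1 and Fuji (0.43, adjusted p = 0.178) did not differ past the test. The line with the lowest *ZEB1* was thus the line with the highest *CDH2*.

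*VIM*, the intermediate filament of mesenchymal cells, was at the top of the range in every array. Signals of 201426_s_at ran from 30977 to 36374, above at least 99.7% of the probe sets of each array, and the lines did not differ past the test (adjusted p = 0.933, widest difference 0.04). At such brightness a probe set may have little room to differ, which was not tested. The second *VIM* probe set, 1555938_x_at, was far dimmer and did differ between lines (adjusted p = 4.55e-05). The suffix of 1555938_x_at marks probes that can match other transcripts, so what it reads is less certain. The signal of 1555938_x_at was 273, 396 and 655 in SYO-1 and 259, 467 and 534 in Fuji, against 143, 169 and 275 in Yamato-SS and 136, 111 and 223 in Aska-SS. The mean in Fuji was 2.13-fold above that in Yamato-SS (adjusted p = 0.000712). SYO-1 and Fuji (0.04) and Yamato-SS and Aska-SS (0.32) did not differ past the test (adjusted p = 0.891 and 0.201).

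*KRT18*, the type I keratin of simple epithelia, was bright in Aska-SS and Fuji. The signal of its only probe set, 201596_x_at, was 1093, 1234 and 1124 in Aska-SS and 924, 893 and 402 in Fuji at 0, 0.3 and 3 µM. It was 155, 118 and 124 in Yamato-SS and 79.5, 14.7 and 79.8 in SYO-1, so neither of these lines overlapped the brighter ones. Aska-SS exceeded SYO-1 by 25.3-fold (adjusted p = 6.53e-06), Fuji exceeded Yamato-SS by 5.27-fold (adjusted p = 0.0013) and Yamato-SS exceeded SYO-1 by 2.90-fold (adjusted p = 0.0219). The single array of SYO-1 at 0.3 µM, at 14.7, lowered the mean of that line and so widened its differences from the others. Aska-SS and Fuji did not differ past the test (log2 difference 0.73, interval -0.34 to 1.80, adjusted p = 0.263). The suffix of this probe set marks probes that can match other transcripts, and *KRT18* has many near-identical pseudogene copies, so the level is uncertain in that respect.

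The type II partner of *KRT18* in the filament, *KRT8*, was read by 1 dim probe set, with signals of 34.8 to 102 and no difference between lines past the test (adjusted p = 0.0831, no filter). *KRT7*, a keratin of ducts and glands, differed among its own probe sets. The brightest, 1558393_at, had 173 to 268 in all 12 arrays with no difference between lines past the test (adjusted p = 0.381). In 214031_s_at all 12 arrays lay at the floor, and 1558394_s_at reached at most 32.9. The fourth, 209016_s_at, was highest in Fuji (113, 68.8 and 19.4 in the order of doses) and Aska-SS (62.1, 56.7 and 19.3), and at 12.1 to 40.04 in SYO-1 and at 12.1 to 13.8 in Yamato-SS (adjusted p = 0.0356 for the 4 lines, no filter). *KRT19*, a keratin of simple epithelia without a fixed partner, lay at the floor in 11 of 12 arrays by 201650_at and in 10 of 12 by 228491_at. The exception in the first was SYO-1 at 3 µM, with 48.8.

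*EPCAM*, an adhesion molecule of epithelial cells, was above the dim range in Aska-SS only. Signals were 71.5, 131 and 124 in Aska-SS, and between the floor and 31.9 in the other lines, with no overlap. Without the filter the mean in Aska-SS was at least 5.09-fold above that in Yamato-SS, of whose arrays 1 lay at the floor (adjusted p = 0.00398). *CDH1*, which encodes E-cadherin, was read at moderate signal by 201131_s_at. In the order of doses it had 112, 181 and 150 in Aska-SS, 67.7, 78.5 and 134 in Yamato-SS and 28.0, 57.5 and 103 in Fuji, while SYO-1 had 29.5 and then the floor at both doses of drug. With those arrays at the floor, Aska-SS was above SYO-1 by at least 3.15 and Yamato-SS above SYO-1 by at least 2.46 on the log2 scale (adjusted p = 0.00507 and 0.0169, no filter). Neighbouring lines did not differ past the test, with adjusted p of 0.434 for Aska-SS and Yamato-SS, 0.434 for Yamato-SS and Fuji and 0.0717 for Fuji and SYO-1. The other *CDH1* probe set, 201130_s_at, lay at the floor in 8 of 12 arrays. Of the 10 probe sets below the filter, 4 differed between lines in the fit without it, beside 41.1% of all 54613.

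*MUC1*, a transmembrane mucin of glandular surfaces, was lowest in SYO-1. The brightest probe set, 213693_s_at, had signals of 178, 269 and 236 in Aska-SS, 146, 268 and 310 in Yamato-SS and 244, 254 and 376 in Fuji, against 31.5, 130 and 124 in SYO-1. Every array of SYO-1 lay below every array of the other lines. The mean in Aska-SS, the next line, was 2.81-fold above that in SYO-1 (adjusted p = 0.00165), and Fuji, Yamato-SS and Aska-SS did not differ among themselves past the test. The same line was lowest by 207847_s_at (Fuji over SYO-1 2.43-fold, adjusted p = 0.0165), while 211695_x_at had 48.3 to 98.1 with no difference between lines past the test (adjusted p = 0.586).

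**Figure D2:**
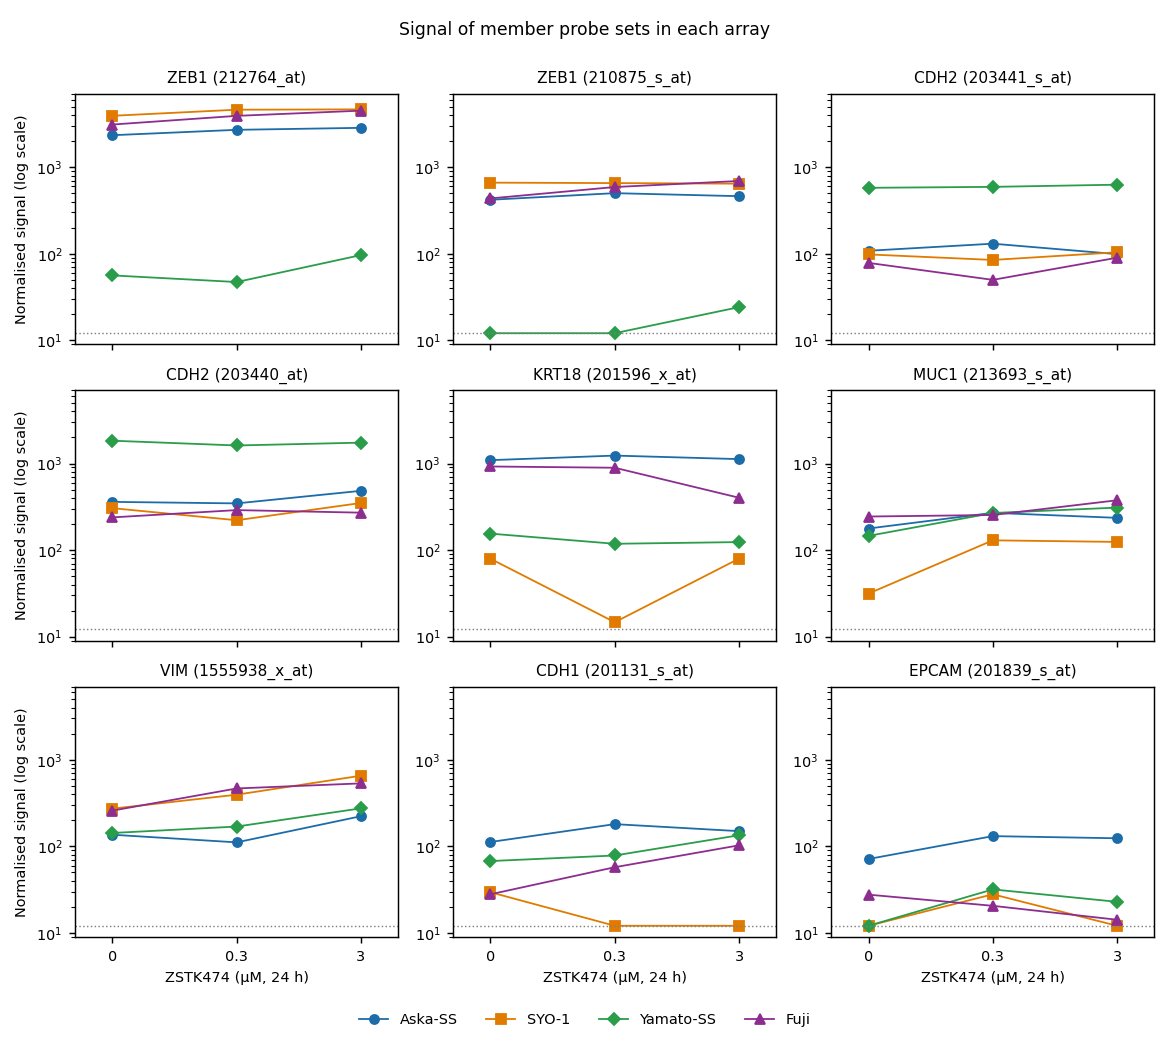
Normalised signal (log axis) of 9 probe sets against ZSTK474 dose (µM, 24 h), with 1 point per array, lines joining the arrays of a cell line and the dotted line at the floor of 12.1. Yamato-SS lies far below the other lines in *ZEB1* (47.2 to 96.7 by 212764_at) and above them in *CDH2* (1615 to 1834 by 203440_at), and SYO-1 lies lowest in *MUC1* and *KRT18*.

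Each line had its own combination. Aska-SS had *KRT18* at 1093 to 1234 and the highest *EPCAM*, together with *ZEB1* at 2342 to 2849. Fuji had *KRT18* and *ZEB1* high, with *EPCAM* at no more than 27.7. SYO-1 had *ZEB1* high, not different from Fuji past the test, and the lowest *MUC1* and *KRT18*. Yamato-SS had the lowest *ZEB1* and the highest *CDH2*, with *CDH1* at 67.7 to 134 and *EPCAM* no higher than 31.9. Lines with the same fusion gene differed from each other, by 41.3-fold in *ZEB1* and 8.74-fold in *KRT18* for Aska-SS over Yamato-SS (SS18-SSX1), and by 15.3-fold in *KRT18* for Fuji over SYO-1 (SS18-SSX2, adjusted p = 0.000152 and 3.93e-05 for *KRT18*).

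Among 7 of 10 transcription factors of the epithelial to mesenchymal transition that passed the filter, all 7 differed between lines, beside 76.3% of all probe sets, and those with the widest ranges were *PRRX1*, *ZEB2* and *TWIST1*. *ZEB2*, the close relative of *ZEB1*, had signals of 2292, 1998 and 1977 in Yamato-SS, 64.2, 56.0 and 101 in Aska-SS, 31.1, 60.2 and 91.3 in Fuji and 16.7, 31.1 and 17.1 in SYO-1. Yamato-SS stood 29.2-fold above the next line (adjusted p = 2.41e-07), so the line low in *ZEB1* was the line high in *ZEB2*. The filter takes the mean over all 12 arrays, with a cut-off at a signal of 65.1. *ZEB2* had means of 20.7 to 71.4 outside Yamato-SS and was kept through its level in that line. Its p-value is therefore no separate support for the difference. *TWIST1* had 1644 to 4415 in the other lines and was lowest in Fuji, with 31.9, 41.8 and 59.7 (the next line above was 52.3-fold higher, adjusted p = 1.56e-10). *PRRX1*, a homeobox factor of mesenchyme, had 16256 to 19476 in SYO-1 and lay at the floor in all 3 arrays of Fuji, at least 1486-fold higher in SYO-1. *SNAI2*, in contrast, had 6780 to 15628 in all 12 arrays.

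Of 28 genes of cell junctions 25 had a probe set of their own on the array. The filter was passed by 14, and 11 of these differed between lines, beside 76.3% of all probe sets. The highest mean lay in Aska-SS for 5 of the 14, in SYO-1 for 5, in Yamato-SS for 2 and in Fuji for 2. *CDH3*, which encodes P-cadherin, had 2982 to 4320 in Fuji and lay at the floor in every array of Yamato-SS, at least 305-fold higher in Fuji. *DSP*, which encodes desmoplakin, had 1461 to 2260 in SYO-1 and at most 91.6 elsewhere (22.4-fold above the next line, adjusted p = 1.50e-06). Like *ZEB2*, *CDH3* and *DSP* were kept by the filter through the single line in which each was bright. *LSR*, a protein of tricellular junctions, had 1108 to 1257 in Aska-SS, 6.17-fold above the next line (adjusted p = 0.000403). Yamato-SS had the lowest mean for 7 of the 14, among them *LSR*, *PATJ* (98.3 to 972 elsewhere, 15.1 to 39.8 in Yamato-SS) and *OCLN*, which encodes occludin (239 to 1105 elsewhere, 78.2 to 108 in Yamato-SS). Over all probe sets tested the lowest mean was in Yamato-SS for 28.9%. *CLDN12* ran the other way, with 8949 to 11966 in Yamato-SS, 3.93-fold above the next line (adjusted p = 9.62e-09).

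Of 22 further epithelial regulators and surface genes 20 had a probe set of their own on the array, and 8 passed. *CD24*, a small surface glycoprotein, had the widest range, with 7598 to 9956 in SYO-1, 8.63-fold above the next line (adjusted p = 4.98e-08). *SPINT2*, a serine protease inhibitor, was highest in Aska-SS (1144 to 1824) and lowest in Fuji (203 to 432), and *KLF5* highest in SYO-1 (396 to 455) and lowest in Fuji (103 to 121). None of 8 other epithelial keratins on the array passed the filter, and *KRT14* had the highest line mean among them, 158 in Aska-SS against 12.1 to 16.3 in the other lines.

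Among 20 mesenchymal genes that passed, of 23, all 20 differed between lines, beside 76.3% of all probe sets. *POSTN*, which encodes the matrix protein periostin, had 37929 to 39379 in Yamato-SS and at most 35.6 in SYO-1, of whose arrays 1 lay at the floor (at least 1627-fold between the means). *FAP*, a surface protease, had 516 to 928 in SYO-1 and lay at the floor in Aska-SS, and was kept by the filter through its level in SYO-1. *TAGLN*, an actin-binding protein of smooth muscle, was highest in Aska-SS (3917 to 9204) and lowest in Yamato-SS (89.8 to 143). Of 13 other intermediate filament genes 11 passed and all 11 differed, against the same background. The neurofilament genes *NEFM* and *NEFL* were highest in Fuji, by 35.4-fold and 9.76-fold over the next line (adjusted p = 1.40e-06 and 1.06e-06). *NES*, which encodes nestin, had 6537 to 8507 in Fuji and 3527 to 4274 in Yamato-SS, and at most 224 in both other lines.

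**Figure D3:**
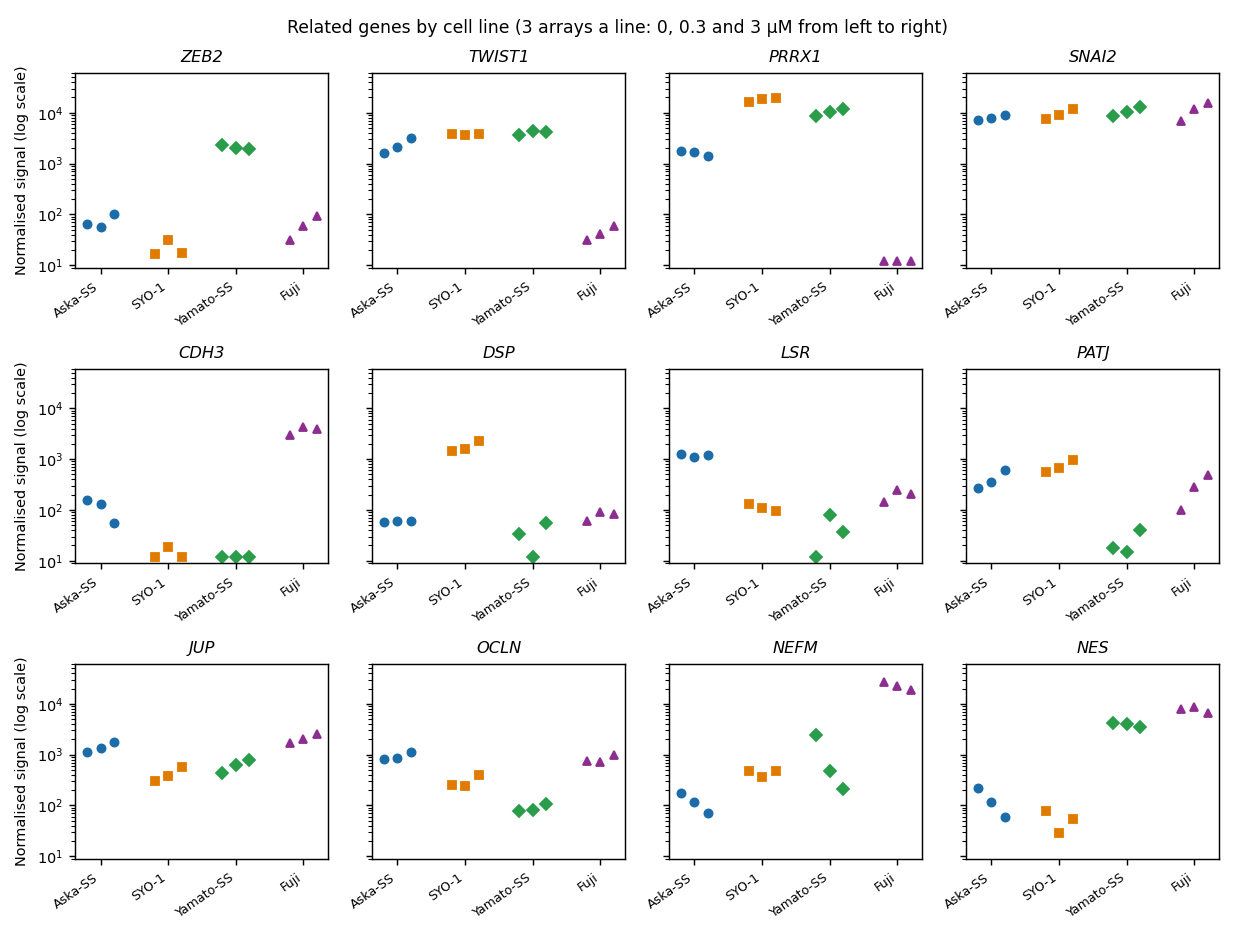
Normalised signal (log axis) of 12 related genes by cell line, with 3 points per line for 0, 0.3 and 3 µM ZSTK474 from left to right. *ZEB2* is high in Yamato-SS alone (1977 to 2292), *TWIST1* and *PRRX1* are low in Fuji alone, and *CDH3*, *DSP* and *LSR* are each high in a single line.

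The genes whose log2 signals ran most like a member were sought among 12126 genes, by Pearson's r over the 12 arrays and with no p-value, since arrays of a line share that line. For *ZEB1* they were *ATP11A* (r = 0.995), *EEF1A2* (0.994) and *WIF1* (0.994), a secreted inhibitor of WNT with line means of 21321 to 33098 elsewhere and of 499.7 in Yamato-SS. For *CDH2* they were *CCDC102B* (0.990), the hepatocyte growth factor receptor gene *MET* (0.982) and *ANGPT1* (0.979), and *MET* had a mean of 20302 in Yamato-SS and of 522 to 1497 elsewhere. For *KRT18* they were *WDR82* (0.970), *NAP1L3* (0.951) and *RAP2C* (0.949), and for *MUC1* they were *RAB36* (0.944), *ERMARD* (0.933) and *ATP6AP1L* (0.916). The closest were looser for *KRT7* (*PPP2R5D*, 0.891, *RBM10*, 0.858, and *IQSEC2*, 0.843) and for *VIM* 201426_s_at (*RPS6KA2*, 0.827, *AGPAT4-IT1*, 0.800, and *LINGO3*, 0.779), whose signals varied little.

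After 24 h at 3 µM ZSTK474, *MUC1*, *ZEB1* and *VIM* each had 1 probe set higher than at 0 µM, and no probe set of the 10 genes was lower past the test. These were 3 of the 12 tested, beside 39.4% of all probe sets called in either direction, 19.6% higher and 19.8% lower. The genes as a group were thus called no more often than the array at large. At 0.3 µM none of the 12 was called (1 at an unadjusted p under 0.05), beside 5.32% of all (3.08% higher and 2.24% lower). Between 0.3 and 3 µM the 1 called was *VIM* 1555938_x_at, beside 11.5% of all (4.98% higher and 6.53% lower).

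At 3 µM *MUC1* 213693_s_at rose by 1.02 in log2 signal (SE 0.27, n = 4 lines, adjusted p = 0.0098), a 2.03-fold change. It was higher in 4 of 4 lines, by 0.41 in Aska-SS, 0.62 in Fuji, 1.08 in Yamato-SS and 1.98 in SYO-1. Without SYO-1 the change of 213693_s_at was 0.71 and was still called (limma adjusted p = 0.0299). At 0.3 µM the change was 0.89, also positive in 4 of 4 lines, and missed the threshold (adjusted p = 0.0722). The other *MUC1* probe sets changed by 0.42 and 0.34 at 3 µM (adjusted p = 0.332 and 0.331), with SYO-1 at -0.93 by 207847_s_at and Aska-SS at -0.08 by 211695_x_at. Leaving out SYO-1, the only line in which 207847_s_at fell, gave 0.88 (adjusted p = 0.0276). That step removes the line that went the other way, so it is no separate evidence of a rise.

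*VIM* 1555938_x_at rose at 3 µM by 0.99 (standard error 0.18, adjusted p = 0.000961), with 0.71 in Aska-SS, 0.94 in Yamato-SS, 1.04 in Fuji and 1.26 in SYO-1. Between 0.3 and 3 µM the change was 0.66 (adjusted p = 0.0346), positive in 4 of 4 lines but 0.19 in Fuji, where the signal at 0.3 µM already exceeded that at 0 µM by 0.85. That step passed with all lines and without Fuji, but not without Aska-SS, SYO-1 or Yamato-SS (adjusted p = 0.115, 0.147 and 0.113). The bright probe set 201426_s_at changed by 0.03 at 3 µM (interval -0.09 to 0.15, adjusted p = 0.691), so the probe sets of *VIM* gave different answers. The one that rose is the one whose probes can match other transcripts.

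*ZEB1* 212764_at rose at 3 µM by 0.46 (standard error 0.15, adjusted p = 0.0244), a 1.38-fold change, with 0.25 in SYO-1, 0.28 in Aska-SS, 0.53 in Fuji and 0.78 in Yamato-SS. Its dose groups overlapped, with the 4 arrays at 3 µM at 96.7 to 4656 and the 4 at 0 µM at 56.3 to 3925, and the change was seen within lines only. The call was lost without Aska-SS (0.52, adjusted p = 0.0543) and without Fuji (0.44, adjusted p = 0.0872). By 210875_s_at and 212758_s_at the changes were 0.44 and 0.80 (adjusted p = 0.0948 and 0.112), with SYO-1 at -0.04 and -0.21. Yamato-SS, at the floor at 0 µM in both, had the highest value by each of them, 2.81 by 212758_s_at. Adjusted over all 54613 probe sets with no filter, 1 of the 3 calls at 3 µM was left, that of *VIM* 1555938_x_at.

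No change of *KRT18*, *CDH2* or *KRT7* passed the test. *KRT18* changed by -0.37 at 3 µM (interval -1.29 to 0.56, adjusted p = 0.525), with -1.20 in Fuji and -0.32 in Yamato-SS beside 0.04 in Aska-SS and 0.01 in SYO-1. *CDH2* 203440_at changed by 0.18 (interval -0.13 to 0.50, adjusted p = 0.347) and 203441_s_at by 0.07 (adjusted p = 0.824). *KRT7* 1558393_at changed by -0.00 (interval -0.37 to 0.37, adjusted p = 0.991). In the fit without the filter none of the 10 dim probe sets was called at any dose (1 at an unadjusted p under 0.05 in each comparison), beside 0.0165% of all at 0.3 against 0 µM, 1.79% at 3 against 0.3 µM and 16.3% at 3 against 0 µM. Nearest was *KRT7* 209016_s_at, which was lower in 3 of 4 lines and at the floor in Yamato-SS at 0 and 3 µM (-1.49, adjusted p = 0.0634). *CDH1* 201131_s_at changed by 0.50 (interval -0.64 to 1.64, adjusted p = 0.586) and *EPCAM* by 0.19 (interval -0.65 to 1.02, adjusted p = 0.813).

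Control probes for actin read both ends of its mRNA, and the log2 of their 3′ over 5′ signal, which bears on RNA integrity, exceeded the 0 µM value at 3 µM by 0.12 in SYO-1, 0.20 in Yamato-SS, 0.21 in Aska-SS and 0.59 in Fuji. The same measure for GAPDH changed by 0.04 in SYO-1, 0.15 in Yamato-SS, -0.13 in Aska-SS and 0.03 in Fuji. The actin measure moved in the same direction as the 3 probe sets that rose, and its part in those changes was not tested. In RNA of a whole culture, fewer cells of a kind and less RNA per cell cannot be told apart.

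**Figure D4:**
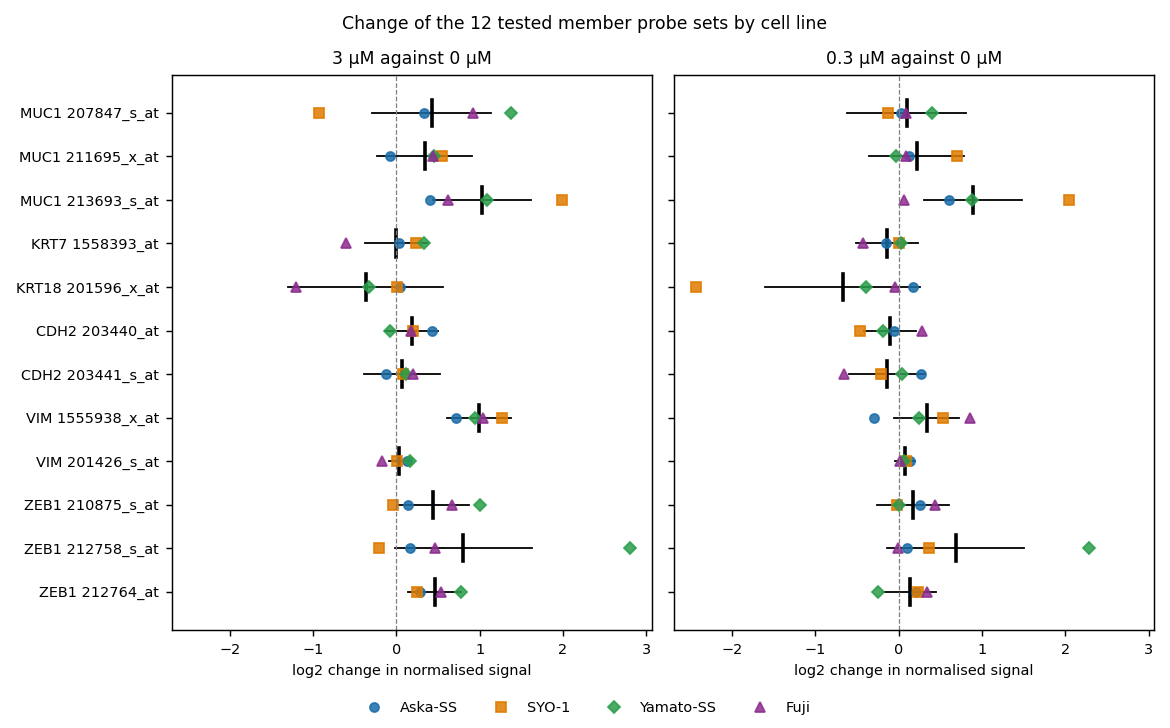
Change in log2 normalised signal of the 12 tested probe sets at 3 µM (left) and 0.3 µM (right) against 0 µM, with coloured points for the 4 cell lines, a thick bar for the fitted mean and a thin line for its 95% interval. At 3 µM all 4 points lie above 0 for *MUC1* 213693_s_at, *VIM* 1555938_x_at and *ZEB1* 212764_at, the 3 probe sets called.

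Related genes moved at 3 µM as follows, where the median change over all probe sets tested was 0.00. Quantile normalization holds that median near 0, so it is not a measured background. Of the 14 junction genes 4 rose and 0 fell (median 0.33), beside 19.6% of all probe sets higher and 19.8% lower. They were *PATJ*, a scaffold of cell polarity (1.37, adjusted p = 0.00118), *JUP*, which encodes plakoglobin (0.76, adjusted p = 0.000105), *OCLN* (0.49, adjusted p = 0.00624) and *CLDN12* (0.38, adjusted p = 0.00426). All 4 were higher in 4 of 4 lines.

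Of the 7 transcription factors 3 rose and 0 fell (median 0.49), where 19.6% of all probe sets were higher and 19.8% lower. *SNAI2*, a repressor of *CDH1*, rose by 0.69 (standard error 0.11, adjusted p = 0.000462). Its signals at 0, 0.3 and 3 µM were 7202, 7808 and 8949 in Aska-SS, 8822, 10462 and 13279 in Yamato-SS, 6780, 11629 and 15628 in Fuji and 7580, 8889 and 11966 in SYO-1. In each line the signal was higher at each step of dose. *TWIST1* rose by 0.51 (adjusted p = 0.0181) and *TCF4* by 0.49 (adjusted p = 0.0165).

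Of the 20 mesenchymal genes 7 rose and 1 fell (median 0.03), again beside 19.6% of all higher and 19.8% lower. *MMP2* and *MMP14*, matrix metalloproteinases, rose by 0.51 and 0.56 (adjusted p = 0.000676 and 0.00396), *FN1*, which encodes fibronectin, by 0.44 (adjusted p = 0.00217) and *CDH11*, a cadherin of mesenchymal cells, by 0.32 (adjusted p = 0.00179). The one that fell was *TPM2*, a tropomyosin (-0.26, adjusted p = 0.0413), which was named after its value was seen. Of the 8 epithelial regulators and surface genes *SPINT2* rose (0.63, adjusted p = 0.00299), and *GRHL1*, a grainyhead factor of epithelia (-1.13, adjusted p = 0.00794), and *SFN*, which encodes 14-3-3 sigma (-0.48, adjusted p = 0.00844), fell, with a median of -0.11.

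Of 11 intermediate filament genes outside the keratins, 1 rose and 5 fell at 3 µM (median -0.53), beside 19.6% and 19.8% of all probe sets, and 5 did not pass the test. The lamin genes *LMNB2* and *LMNB1* fell by 1.54 and 1.23 on the log2 scale (adjusted p = 8.19e-05 and 0.0001), and *NEFL*, which encodes the light neurofilament, fell by 0.88 (adjusted p = 0.0133). *NEFL* was lower in 3 of 4 lines, but not in Fuji, its brightest line, with 34553 at 0 µM and 35372 at 3 µM. As for the bright *VIM* probe set, there may be little room to differ at such signals, which was not tested. *PRPH*, which encodes peripherin of nerve cells, rose by 1.12 (adjusted p = 0.00196). Of 4 cadherin and catenin genes tested, *CTNNA1*, which encodes alpha-catenin (0.33, adjusted p = 0.00183), and *CTNNBIP1*, an inhibitor of beta-catenin (0.51, adjusted p = 0.0342), rose, and *VCL*, which encodes vinculin, fell (-0.44, adjusted p = 0.0154). *CTNNBIP1* was higher and *VCL* lower in 3 of 4 lines each. *CTNNB1*, which encodes beta-catenin itself, changed by 0.07 (adjusted p = 0.432).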

How the data were processed

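RNA of 4 SS cell lines (Aska-SS and Yamato-SS, Fuji and SYO-1), each at 0, 0.3 and 3 µM ZSTK474 for 24 h, was hybridised to 12 U133 Plus 2.0 GeneChips. The authors deposited linear MAS5 signal intensity values of 54675 probe sets, scaled to a common trimmed mean (MAS5 version not given in the sources). The methods name quantile normalization, but the deposited columns have different medians, so it was applied here. The 62 control probe sets were left out. Values under the 20th percentile (12.1) were raised to it and log2 was taken. Of the probe sets, 41097 have 1 gene symbol, 1801 several and 11777 none in the platform annotation. The 27306 of 54613 with a mean log2 above the median were tested. That mean is over all lines, so a gene bright in a single line could pass through it, which favours a difference between lines.

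Tests used limma 3.58.1 in R 4.3.3 (lmFit and eBayes with a variance trend) with cell line and dose as terms, and p-values were adjusted by Benjamini-Hochberg over all probe sets tested, with a threshold of 0.05. Line levels were tested with the F test and the 6 pairwise contrasts of the same fit. The lines pair the arrays: after taking out the dose means, arrays of one line correlated at r = 0.788 to 0.907 and arrays of different lines at -0.415 to -0.103. Taking out the mean of the 4 lines itself pushes the values between lines to negative ones, so only the first range bears on the pairing. All probe sets of the 10 genes are described; of each other list, the 4 genes with the smallest adjusted p at 3 µM among those called and the 3 with the widest range of line means are named, from the brightest probe set of a gene. The shares printed beside the lists are over all probe sets tested, with unnamed ones and dimmer ones of the same gene, so they are only a rough background. The genes and lists were chosen with earlier results of these data known. Alternatives changed the scaling (deposited signals as they are), the floor (none with 16 added, or the 40th percentile), the filter (none, or the 65th percentile), the unit (brightest probe set or mean of a gene), the variance model (no trend, array weights), the terms (no line, no dose) and the arrays (the compared doses alone, or without a line or a dose). The number of arrays limits the precision. Some items are not reported here.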

Additional observations from a re-analysis of the deposited data

Results flagged for a closer look

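In each group of 4 arrays of one dose, an array was singled out where its gap to the nearest other, divided by the range of the group, passed Dixon's 95% critical value for 4 samples on the log2 signal. Of 60 groups 18 did so, where chance gives about 5%. Many come from 1 line and 1 gene and are not independent. Yamato-SS lay below the other lines in *ZEB1* at 0, 0.3 and 3 µM, with ratios of 0.878, 0.883 and 0.873 by 212764_at, 0.886, 0.933 and 0.880 by 210875_s_at and 0.950, 0.850 and 0.911 by 212758_s_at. Yamato-SS lay above them in *CDH2* 203441_s_at at 0 µM (0.839) and 3 µM (0.926). SYO-1 lay below the others in *MUC1* 213693_s_at at 0.3 µM (0.921, signal 130 against 254 to 269) and in *CDH1* 201131_s_at at 3 µM (0.850, at the floor against 103 to 150). The ratio was 1 where all but 1 array lay at the floor, and such values say little: *KRT19* 201650_at in SYO-1 at 3 µM (48.8), *KRT19* 228491_at in Aska-SS at 0 µM (18.0) and 0.3 µM (19.4), and *CDH1* 201130_s_at in Fuji at 0.3 µM (13.5) and Aska-SS at 3 µM (28.1).

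Some changes at 3 µM against 0 µM ran in opposite directions in a pair of lines and were at least 1 apart on the log2 scale. With 1 array per line and dose these differences were not tested. *CDH1* 201131_s_at was 0.42 in Aska-SS, 0.99 in Yamato-SS and 1.88 in Fuji, against -1.29 in SYO-1, so the differences from SYO-1 were at least 1.70, 2.28 and 3.17, since SYO-1 lay at the floor at 3 µM. *MUC1* 207847_s_at was 0.33 in Aska-SS, 1.38 in Yamato-SS and 0.92 in Fuji, against -0.93 in SYO-1, with differences of 1.26, 2.31 and 1.86. *EPCAM* was 0.80 in Aska-SS and 0.92 in Yamato-SS, against -0.96 in Fuji, with differences of 1.76 and at least 1.88, since Yamato-SS lay at the floor at 0 µM. *KRT18* was 0.04 in Aska-SS and 0.01 in SYO-1, against -1.20 in Fuji, with a difference of 1.24 for Aska-SS. *ZEB1* 239952_at was 0.38 in Aska-SS, against -0.64 in SYO-1, -0.71 in Fuji and -0.90 in Yamato-SS, with differences of 1.02, 1.09 and 1.28.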

How the results depend on the processing

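At 0.3 against 0 µM, 0 of 12 probe sets were called, and 1 (*MUC1* 213693_s_at) with no quantile normalization (adjusted p = 0.0412) and with array weights (0.0229). At 3 against 0.3 µM the 1 call (*VIM* 1555938_x_at) became 0 with no filter, with the brightest probe set per gene (where *VIM* is read by the other probe set) and with no variance trend, and leaving out a line gave 0 to 1, with 0 without Aska-SS, SYO-1 or Yamato-SS. At 3 against 0 µM the 3 calls became 1 with no filter, where *MUC1* 213693_s_at had an adjusted p of 0.0634 and *ZEB1* 212764_at of 0.0989, and were 2 to 4 when a line was left out. *ZEB1* 212764_at also missed the threshold with no variance trend (0.0534) and array weights (0.0759). Without the cell line as a replicate block, which ignores the pairing by line, 0 were called at 3 against 0 µM and 0 at 3 against 0.3 µM. The 9 probe sets that differ between lines became 4 of 6 genes by the brightest probe set and 5 of 6 by the mean of the probe sets. With that mean, *VIM* (read elsewhere at its brightest probe set, 201426_s_at) turned to 0.31 at 3 against 0.3 µM (adjusted p = 0.0475) and to -0.55 for Yamato-SS minus SYO-1 (adjusted p = 0.00108), since it joins 2 probe sets that differ. Of the other values 603 kept their direction and side of the threshold, 18 lost and 5 gained a call. The line differences of *ZEB1*, *CDH2* and *KRT18* that were run again kept theirs in every alternative. Not every pair of lines was run again, so single pairs may depend on the processing. Dim probe sets near the floor limit what can be said of *KRT19*, *EPCAM* and *CDH1*.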
